A study of Drosophila melanogaster with 2 samples.

Results

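The regions described are the 4972 candidate peaks, of 144610 in the ranked list over both replicates, that lie on the Y chromosome or on any sequence other than the 6 placed autosomal and X arms. Of the 2 deposited ranked lists over both replicates, this is the one that holds every peak of the larger thresholded set. That set is the 1969 peaks that the authors kept by the irreproducible discovery rate (IDR). The IDR measures how well the rank of a peak repeats. Which lists were compared to give it is not established here. The peaks come from chromatin immunoprecipitation followed by sequencing (ChIP-seq) with an antibody against GFP, from flies that carry a transgene for a fusion of eGFP to Rough, the homeodomain protein of the *ro* gene. Whole embryos aged 0 to 24 h of the ro-GFP strain made up 1 group of 2 biological replicates, with sex not collected per the labels, and chromatin was sonicated to 200 to 800 bp. There was no other group, and a control library is not analysed here, so the results are descriptions with no test between groups. The files hold no read totals, so the depth is unknown.

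The names of the sequences follow the dm6 build, which is Release 6 of the assembly. Sequences named chrX or chrY with the ending random are scaffolds assigned to the X or the Y but not placed on it, and those named chrUn are assigned to no chromosome, although the reference titles of some name a centromere region or the X and Y together. Much of this sequence is heterochromatin: satellite arrays, ribosomal RNA genes and transposon remnants, in which the same words recur many times. The X carries a large block of the 359-bp satellite beside its ribosomal DNA, where R1 retrotransposons insert into the 28S genes. HeT-A and TART retrotransposons maintain fly telomeres, and the Y carries male fertility genes and the Suppressor of Stellate repeats, which give rise to small RNAs that silence Stellate on the X.

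Several of the kinds of sequence are shown by windows that reach 50 bases to each side of a summit, the highest point of a peak. They are taken from the reference assembly of the same build on the plus strand, with the central 31 bases in capitals. Those 31 bases are the ones counted in the assembly to learn how often the summit occurs. The first 4 windows belong to peaks in the thresholded set, from the Y, from 2 satellite scaffolds and from a scaffold with no repeat match. The next 3 belong to strong candidates outside the set, from an array of a short repeat, from a telomeric element and from a Suppressor of Stellate repeat. No window of R1, precursor rRNA or another transposon is shown.
Suppressor of Stellate, in the set, chrY:945608-945708: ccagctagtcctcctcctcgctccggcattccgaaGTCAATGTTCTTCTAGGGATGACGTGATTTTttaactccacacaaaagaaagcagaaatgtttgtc
X satellite, in the set, chrX_DS485898v1_random:495-595: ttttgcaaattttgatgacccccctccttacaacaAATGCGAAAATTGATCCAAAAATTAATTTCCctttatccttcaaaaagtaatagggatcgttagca
X satellite, in the set, chrX_DS484633v1_random:141-241: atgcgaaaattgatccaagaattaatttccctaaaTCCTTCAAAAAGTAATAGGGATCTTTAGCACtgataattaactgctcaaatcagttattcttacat
no repeat match, in the set, chrX_DS483655v1_random:12631-12731: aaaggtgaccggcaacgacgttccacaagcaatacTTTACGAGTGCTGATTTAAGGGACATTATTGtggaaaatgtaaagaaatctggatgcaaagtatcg
short tandem repeat, outside the set, chrUn_CP007079v1:21226-21326: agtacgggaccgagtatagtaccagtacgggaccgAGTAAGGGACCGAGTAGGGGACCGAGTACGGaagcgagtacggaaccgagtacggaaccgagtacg
HeT-A, outside the set, chrY_DS483677v1_random:10935-11035: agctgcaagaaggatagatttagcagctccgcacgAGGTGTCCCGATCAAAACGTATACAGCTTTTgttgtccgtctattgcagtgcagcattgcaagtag
Suppressor of Stellate, outside the set, chrY_DS485048v1_random:152-252: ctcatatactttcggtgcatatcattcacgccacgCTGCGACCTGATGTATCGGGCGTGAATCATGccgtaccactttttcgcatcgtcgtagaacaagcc
In the window titled to the centromere region of chromosome 3, the unit recurs with a period of 11 or 12 bases. Dodeca, a GC-rich satellite with a short unit, is known from that region, but the candidates were not compared with its sequence. The 2 satellite windows come from different scaffolds. Within the scaffold of the strongest peak the unit recurs at a distance of 358 bp, as the next pair shows, in which capitals mark the 5 of 60 bases that differ from the first line.
satellite unit, chrX_DS485898v1_random:515-574: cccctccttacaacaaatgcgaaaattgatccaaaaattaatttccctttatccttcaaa
satellite unit, chrX_DS485898v1_random:157-216: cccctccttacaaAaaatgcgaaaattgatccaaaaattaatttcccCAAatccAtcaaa

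Where the candidates lay was uneven. The Y itself held 998 candidates, Y-named unplaced scaffolds 517, X-named unplaced scaffolds 1014 and chrUn sequences 2443. They were spread over 1233 sequences, of which 440 held 1 candidate and 55 held at least 10. The 100 sequences with the most candidates held 50% of them. Per kb of sequence without gaps, X-named scaffolds had 1.09 candidates, close to the 1.04 of the placed arms, whereas Y-named scaffolds had 0.651, chrUn sequences 0.648 and the Y 0.293. After the Y, the sequences with the most candidates were chrY_CP007107v1_random with 58, chrUn_CP007081v1 with 57, chrUn_CP007085v1 and chrUn_DS483562v1 with 52 each, and chrY_CP007109v1_random with 47. They were followed by chrUn_CP007080v1 with 46, chrUn_CP007076v1 with 42, chrUn_CP007074v1 with 40 and chrUn_CP007120v1, the scaffold titled as ribosomal DNA, with 39. Of these 10 sequences, the Y alone held a peak of the thresholded set.

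Among the Y and unplaced candidates, those in the thresholded set came almost entirely from X-named scaffolds. In the whole ranked list 1.36% of candidates were in the set. Among the Y and unplaced candidates 87 of 4972 were (1.75%, Wilson 95% interval 1.42 to 2.15), of which 86 lay on X-named scaffolds and 1 on the Y. That is 8.48% of the X-named candidates (6.92 to 10.4), 0.100% of those on the Y (0.0177 to 0.565), and 1.35% of those on the placed arms (1.29 to 1.41). None of the 517 Y-named candidates was in the set (upper bound 0.738%) and none of the 2443 on chrUn sequences was (upper bound 0.157%). The intervals cover the counting of peaks in these lists only, and the peaks share their libraries. In the lists of replicate 1 alone, 1.00% of the Y and 3.26% of the unplaced candidates were in that replicate's thresholded list, and in those of replicate 2 alone 0.455% and 3.55%, against 0.100% and 2.16% over both. Per Mb without gaps the set held 92.2 peaks on X-named scaffolds, 14.1 on the arms and 0.293 on the Y.

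Signal and IDR did not follow the same division. The signal value is the authors' own peak height, on a scale that no label or header states. Its median was 19.0 on X-named scaffolds (quartiles 10.2 and 35.2), near the 19.4 of the arms, and was 13.2 on Y-named scaffolds, 12.2 on chrUn sequences and 9.69 on the Y. The highest value was 424.9 on a chrUn sequence, 367.5 on an X-named scaffold, 232.8 on a Y-named scaffold and 115.9 on the Y. The Y therefore held the weakest candidates and the other 3 kinds all held strong ones. A global IDR of 0.01 or less, that is a −log10 of 2 or more, is the mark of the thresholded set. In the whole list 1.46% of candidates reached it, against 86 X-named (8.48%), 29 Y-named (5.61%), 51 chrUn (2.09%) and 1 Y candidate. All 87 of these X-named and Y candidates were in the set, and none of the 80 on Y-named and chrUn sequences was. On the placed arms 1882 of 1946 were in the set (96.7%), with 64 outside. A low IDR did not always go with a candidate in both replicates. Of the 80 Y-named and chrUn candidates, 73 had one in both replicates' ranked lists and 1 had one in neither.

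**Figure D1:**
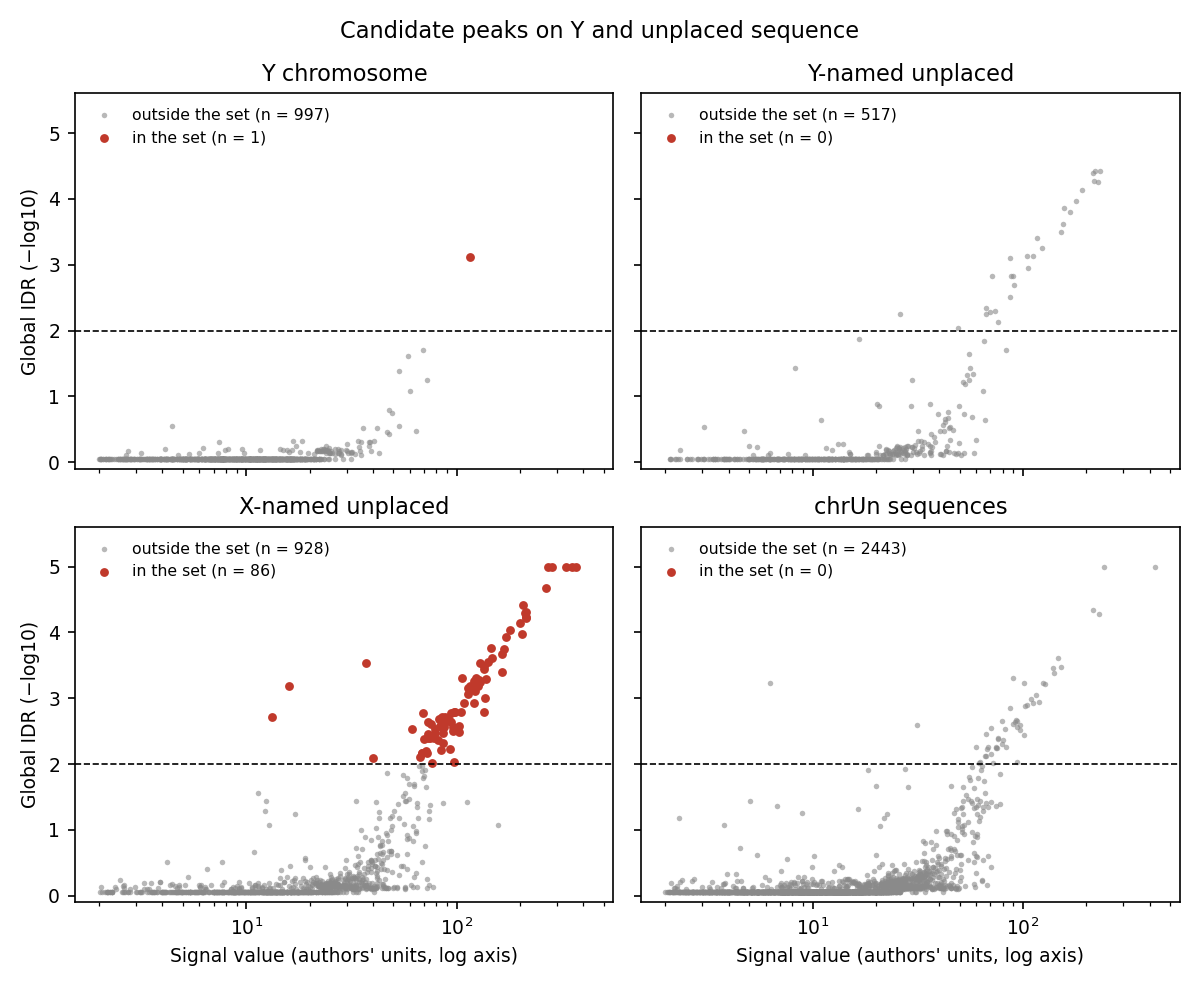
Signal value (horizontal, log axis) against −log10 of the global IDR (vertical) for every candidate on the Y, on Y-named and X-named unplaced scaffolds and on chrUn sequences, with peaks of the thresholded set in red and the dashed line at an IDR of 0.01. All 86 X-named candidates above the line are red, whereas the 29 Y-named and 51 chrUn candidates above it are grey.

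Looser and other limits were also looked at, although candidates with an IDR between 0.01 and 0.05 lie outside the set by its mark. At an IDR of 0.05 or less stood 2.4% of the whole list, 114 X-named (11.2%), 37 Y-named (7.16%), 89 chrUn (3.64%) and 4 Y candidates (0.401%). On the Y that share was 1.5% in the list of replicate 1 alone and 1.14% in that of replicate 2 alone. With a signal of at least 100, 43 X-named candidates lay in the set and 2 outside it, whereas all 16 such Y-named and all 18 such chrUn candidates lay outside. On the placed arms 971 such candidates lay in the set and 44 outside. The 16 Y-named and 18 chrUn candidates had all reached the IDR that marks the set, so the signal limit counts some of the candidates above again. No Y-named or chrUn peak was in any of the authors' 4 thresholded lists. Beside the set above, the conservative list, with 1.14% of its ranked candidates, held 84 X-named and 2 Y peaks. The list of replicate 1 alone (1.59% of its candidates) held 64 and 2, and the one of replicate 2 alone (0.915%) held 85 and 2. The sources used here do not give the steps between the ranked and the thresholded lists, and the cause of the difference was not tested.

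Of the 10 strongest unplaced peaks in the set, 7 were satellite. The strongest, chrX_DS485898v1_random:355-734, had a signal of 367.5, with 145.8 in the ranked list of replicate 1 and 221.4 in the one of replicate 2. It is the satellite printed above, on a scaffold of 1028 bp. The next, chrX_DS483655v1_random:12491-12870, had 352.6, with 165.8 and 194.7 in replicates 1 and 2. It matched no repeat in the library used here, which holds the satellite unit, a precursor rRNA, the Stellate family and every annotated transposon copy. Its best match on a placed arm, at chrX:22275918-22276302 with 97.1% identity, held no candidate. The third, chrX_DS484057v1_random:602-747, had 330.3, with 38.3 in replicate 1 and 321.0 in replicate 2, and is 146 bp of a ribosomal precursor at 99.3% identity. It showed the widest gap between replicates of the 10 strongest.

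A second satellite scaffold, chrX_DS484610v1_random:515-894, had 285.0 (144.4 in replicate 1 and 156.9 in replicate 2). A copy of the baggins retrotransposon at chrX_DS485647v1_random:749-1086 had 271.1 (75.1 and 203.1). The other 5 of the 10 strongest were again satellite. They were chrX_DS484529v1_random:826-1205 with 266.3 (203.8 and 115.3), chrX_DS485096v1_random:258-637 with 214.3 (94.9 and 131.1) and chrX_DS484633v1_random:1-369 with 213.5 (54.4 and 168.9). Last came chrX_DS484669v1_random:1-301 with 213.4 (83.8 and 136.5) and chrX_DS484215v1_random:1849-2228 with 211.6 (142.6 and 96.0). All 10 were in the thresholded list of each replicate and in the conservative list. Replicate 2 was the higher in 8 of them, and replicate 1 in the satellite peaks at DS484529 and DS484215. The peaks of DS484633 and DS484669 begin at base 1, the end of their scaffolds.

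The Y peak in the set, chrY:945468-945847, had a signal of 115.9 and a −log10 IDR of 3.12, with 61.0 in replicate 1 and 46.7 in replicate 2. It lay in the thresholded list of replicate 1 and was missing from that of replicate 2. The peak matched Su(Ste):CR42422, a Suppressor of Stellate repeat, at 95.4% identity, and its summit lay in no annotated gene. Of the 87 peaks the lowest signal was 13.3, in a copy of R1, where the peak overlaps a stronger one with 87.8.

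By type of sequence, satellite and R1 made up most of the 87 Y and unplaced peaks in the set. Of these, 57 matched the X satellite and 18 matched R1 over at least 50% of the peak, 4 matched other transposons, 1 each matched precursor rRNA, a Stellate family repeat and the DNA transposon hoppel, and 5 matched none. Among all 633 satellite candidates 57 were in the set (9.005%, 7.01 to 11.5), and among all 378 R1 candidates 18 were (4.76%, 3.03 to 7.40). The satellite unit was itself taken from the scaffold of the strongest of these peaks, so the match of that peak was fixed by the choice, and no outside reference for the satellite was used. The satellite peaks in the set lay on 52 scaffolds and matched that unit at 84.6% to 100% identity, with a median of 94.7%. Those of R1 lay on 13 scaffolds. Satellite made up 50.7% and R1 33.2% of all X-named candidates, in and out of the set.

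The same 2 repeats had no peak in the set on chrUn sequences or on the arms. Of all candidates, 0 of 2443 on chrUn sequences and 1.35% on the arms were in the set. On chrUn sequences 119 candidates matched the satellite, 4 at an IDR of 0.01 or less, and on the arms 95 did, with none at that level. None of these was in the set (upper bounds 3.13% on chrUn sequences and 3.89% on the arms). R1 matched 32 chrUn candidates, 3 at an IDR of 0.01 or less, and 147 on the arms, 4 at that level. Again none was in the set (upper bounds 10.7% and 2.55%). On the arms 93.5% of candidates matched no repeat, against 16.3% of the Y and unplaced candidates, and 19 of the 1882 arm peaks in the set matched a transposon of another family.

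**Figure D2:**
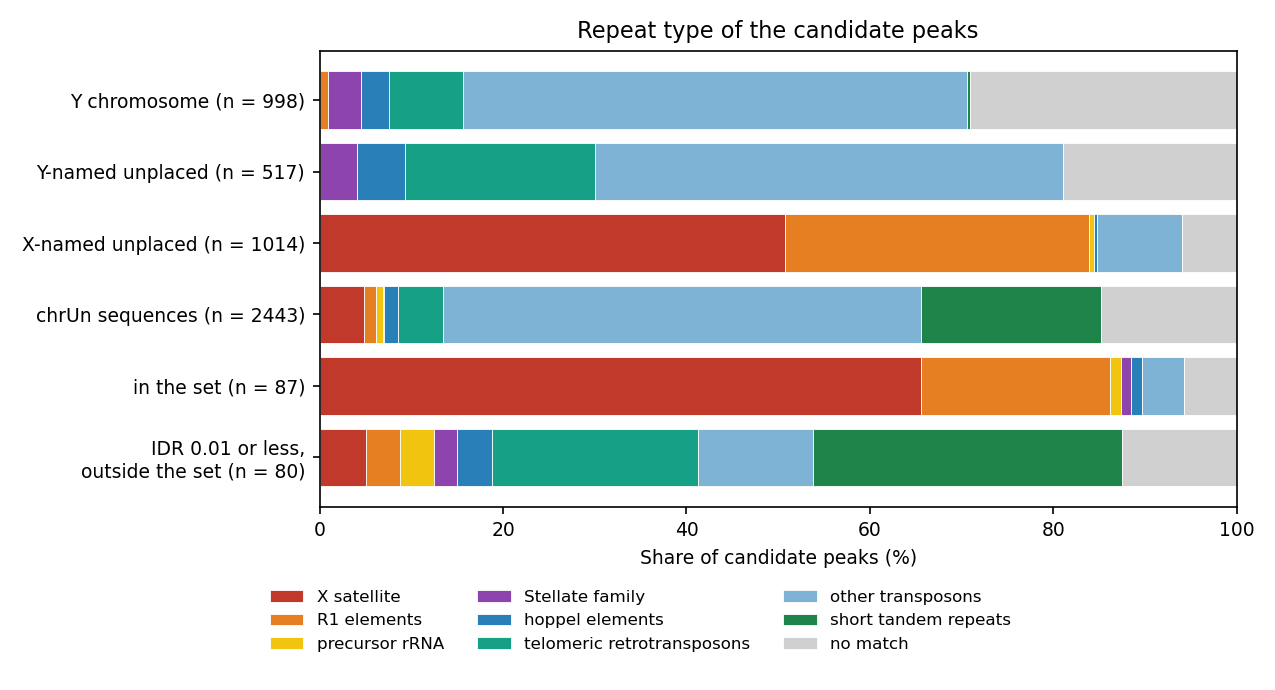
Share of candidates (horizontal, percent) by the repeat that each matched best, for the 4 kinds of sequence, for the 87 Y and unplaced peaks in the set and for the 80 at an IDR of 0.01 or less outside it. X satellite and R1 fill most of the X-named bar and of the bar for the set, and short tandem repeats (27) and telomeric elements (18) are the 2 most frequent kinds outside it.

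The unplaced peaks were spread over many scaffolds. The 86 unplaced peaks of the set lay on 74 scaffolds with a median length of 1849 bp (1012 to 33320 bp), of which 66 held 1 such peak. The scaffolds with the most were chrX_DS484187v1_random, where 4 of 4 candidates were in the set, all R1, and chrX_DS484850v1_random, where 3 of 3 were, all satellite. The longest, chrX_CP007103v1_random, had 3 of 38 in the set, and 32 of its candidates matched R1. Next came chrX_DS485647v1_random, with 2 of 2, chrX_DS484580v1_random (2 of 3) and chrX_DS484582v1_random (2 of 6). They were followed by chrX_DS483971v1_random (2 of 8), chrX_DS483969v1_random (2 of 3), chrX_DS485898v1_random (1 of 1) and chrX_DS483655v1_random (1 of 7). In 47 of the 74, words of the scaffold recurred most often at a spacing of 350 to 370 bp, the length of the satellite unit, against 238 of all 387 X-named scaffolds with candidates, 45 of 704 chrUn sequences and 1 of 141 Y-named scaffolds.

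Outside the set, the 80 candidates at an IDR of 0.01 or less were in part of other kinds. They lay on 61 sequences with a median signal of 91.9, and 27 of them were short tandem repeats, 18 telomeric retrotransposons, 10 other transposons, 4 satellite, 3 each R1, precursor rRNA and hoppel, 2 Stellate family and 10 without a match. No short tandem repeat or telomeric element was among the 87 peaks in the set, whereas the other kinds occurred in both. Of those 87, 86 lay on X-named scaffolds, where no candidate was of either kind. The kind of repeat and the kind of sequence cannot be told apart here. A candidate was called a short tandem repeat where it had no match and at least 50% of its bases equalled the base a fixed distance of up to 40 bases before. In 25 of the 27 that distance was 11 or 12 bases, as in the window printed above, on 19 chrUn sequences, with signals from 6.25 to 150.8 and a median of 79.5. Over all Y and unplaced candidates 439 had that distance, 438 of them on chrUn sequences titled to the centromere region of chromosome 3, and none was in the set. On the arms 209 candidates had it, and 2 of them were in the set. None of the 25 lay in the thresholded list of either replicate, as no chrUn peak of any kind did.

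No X-named candidate matched a telomeric element. On the other sequences they accounted for 305 candidates, 80 on the Y, 107 on Y-named scaffolds and 118 on chrUn sequences, 193 of them HeT-A and 110 TART-A. The median signal was 20.8 on Y-named scaffolds, 15.9 on chrUn sequences and 10.8 on the Y. All 18 at an IDR of 0.01 or less, 13 of them on Y-named scaffolds, were candidates in the ranked list of both replicates. Their medians were 50.02 in replicate 1 and 51.5 in replicate 2, in candidates that a low IDR had already chosen. Over all 305 telomeric candidates, 47.5% had one in replicate 1 and 68.9% in replicate 2.

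The strongest candidates outside the set lay on the ribosomal DNA scaffold chrUn_CP007120v1 and on Y-named scaffolds. At chrUn_CP007120v1:53178-53557 a copy of R1 had a signal of 424.9, the highest of all the Y and unplaced candidates, with 164.9 in replicate 1 and 274.6 in replicate 2. At chrUn_CP007120v1:71706-72085, in the gene 28SrRNA:CR45844, the signal was 243.6, with 427.0 in replicate 1 and no candidate in replicate 2. At chrUn_CP007120v1:45296-45675, in pre-rRNA:CR45845, it was 230.7, with no candidate in the list of either replicate. The R1 peak thus had a candidate in both replicates, whereas the ribosomal gene peaks did not. On the Y-named scaffolds, chrY_DS485359v1_random:144-523, a hoppel element, had 232.8 (134.2 and 103.3), and chrY_DS485927v1_random:123-502, a HeT-A element, had 226.5 (99.9 and 114.8).

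On the Y itself the 5 strongest candidates outside the set were weaker. A Stellate family repeat at chrY:2512771-2513150 had 72.2 (47.1 in replicate 1 and 41.9 in replicate 2), and a hoppel element at chrY:1040317-1040696 had 69.4 (28 and 37.2). Another hoppel element at chrY:2640349-2640728 had 64.1 (13.8 and 62.5), an R1 copy at chrY:989174-989553 had 59.7 (30.97 and 31.15), and a candidate in the pseudogene CR46150 at chrY:3258850-3259229 had 58.7 (25.2 and 37.7). The third and the fifth of these lay in the thresholded list of replicate 2, and the first overlapped a peak of the conservative list. No value of these 5 reached an IDR of 0.01 in the list over both replicates.

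The 2 replicates held different shares of these candidates, in ranked lists of unlike length. The list of replicate 1 held 93400 candidates and that of replicate 2 held 121684. A candidate of replicate 1 overlapped 21.1% of the Y candidates, 41.8% of the Y-named, 61.6% of the X-named and 40.7% of the chrUn candidates, against 62.4% on the arms. In replicate 2 the shares were 45.7%, 59.8%, 70.5% and 57.7%, against 80.7%. In neither replicate's list were 43.9% of the Y candidates, 10.9% of the X-named and 7.48% of those on the arms. Of the 4 kinds of sequence, the X-named candidates were the nearest to the arms in these shares and the Y candidates the farthest. By type, 72.2% of satellite candidates had one in replicate 1 and 55.0% in replicate 2, whereas for R1 the shares were 48.1% and 85.2%. The difference between replicates was not tested.

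Among the 87 peaks in the set, more overlapped the thresholded list of replicate 2. That list held 1113 peaks, and the one of replicate 1 held 1484. Of the 87, 39 overlapped a thresholded peak of replicate 1 and 67 one of replicate 2. They fell into 27 in both, 12 in replicate 1 alone, 40 in replicate 2 alone and 8 in neither. Of the 1882 arm peaks, 1261 overlapped the list of replicate 1, 979 that of replicate 2 and 746 both, so the arms leaned the other way. R1 peaks leaned most, with 16 of 18 overlapping replicate 2 and 2 of 18 overlapping replicate 1, both of the latter also in replicate 2. For satellite peaks the counts were 42 and 32 of 57, with 22 in both. Of the 87, 82 had a candidate in both ranked lists, with median signals of 44.9 in replicate 1 and 70.6 in replicate 2. The Spearman correlation across these 82 was 0.0916, in peaks already chosen by a low IDR. Over all candidates with one in both lists it was 0.503 on X-named scaffolds and 0.642 on Y-named ones. It was 0.521 on chrUn sequences, 0.381 on the Y and 0.224 on the arms. These values describe peaks that share 1 pair of libraries.

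**Figure D3:**
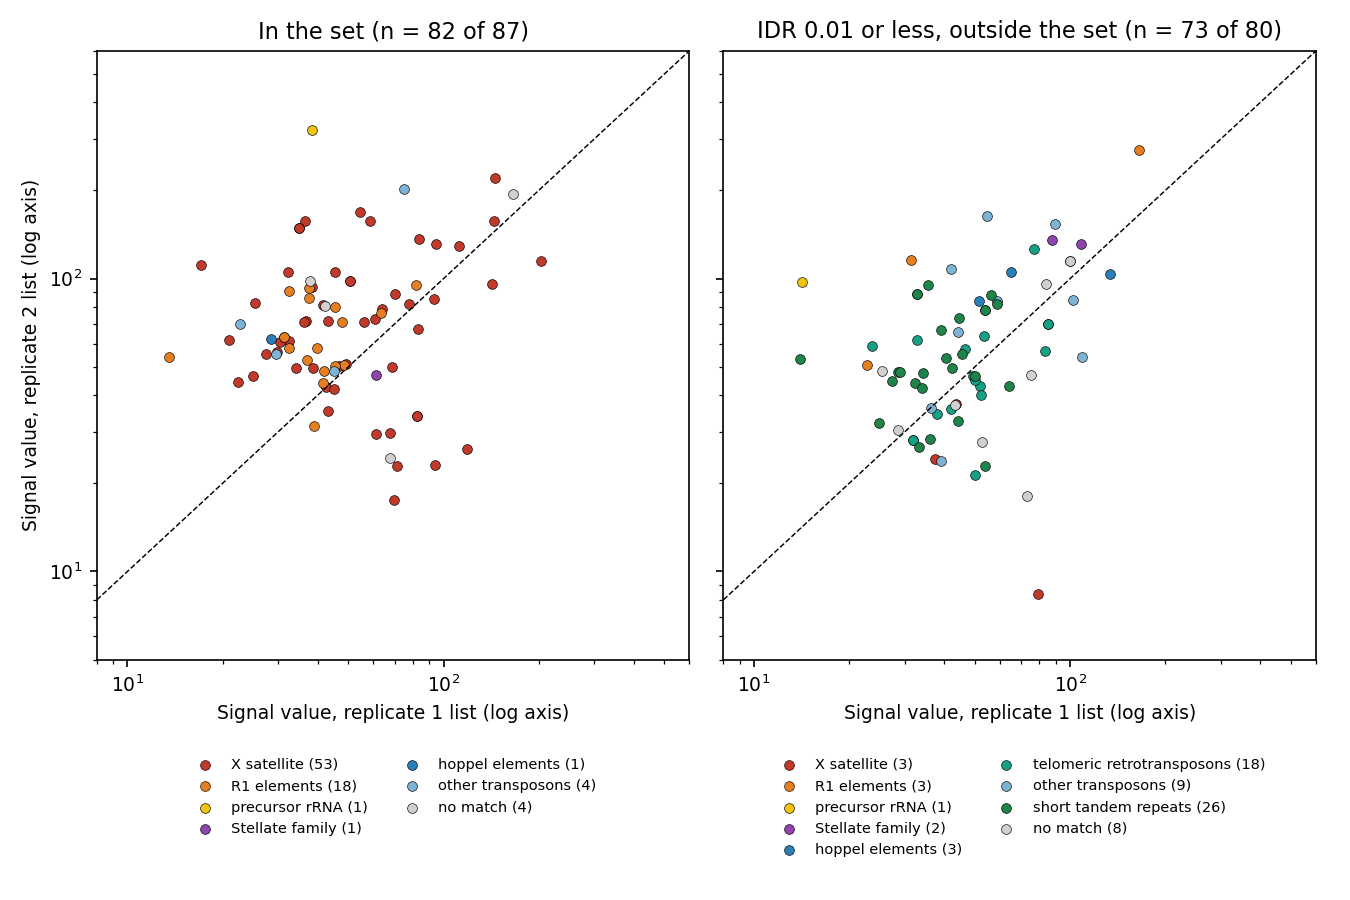
Signal in the ranked list of replicate 1 (horizontal) against that of replicate 2 (vertical), both on log axes, for peaks with a candidate in both lists, 82 of 87 in the set (left) and 73 of 80 at an IDR of 0.01 or less outside it (right), coloured by repeat type, with the dashed line at equal signal. In the set the median is 44.9 in replicate 1 and 70.6 in replicate 2, and the points are widely scattered about the line.

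The summits on X-named scaffolds were the most repeated. The 31 bases at the summit occurred more than once in the assembly for 63.0% of the Y and unplaced candidates, 48.7% on the Y, 61.7% on Y-named and on chrUn sequences and 80.8% on X-named scaffolds, against 3.89% on the arms. By the fewest copies among 3 neighbouring windows, 24.6% of the Y and 40.6% of the unplaced candidates were repeated, against 48.7% and 66.6% at the summit alone. The median number of copies at the summit on X-named scaffolds was 24. In the set, 73 of the 87 Y and unplaced peaks had more than 1 copy (83.9%), with up to 1015, against 16 of 1882 arm peaks (0.850%). The summit of the strongest satellite peak had 513 copies, and that of the Y peak had 1. How the authors placed reads that match several copies is stated in no label or header, so a peak on 1 copy cannot be told apart from signal spread over several.

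**Figure D4:**
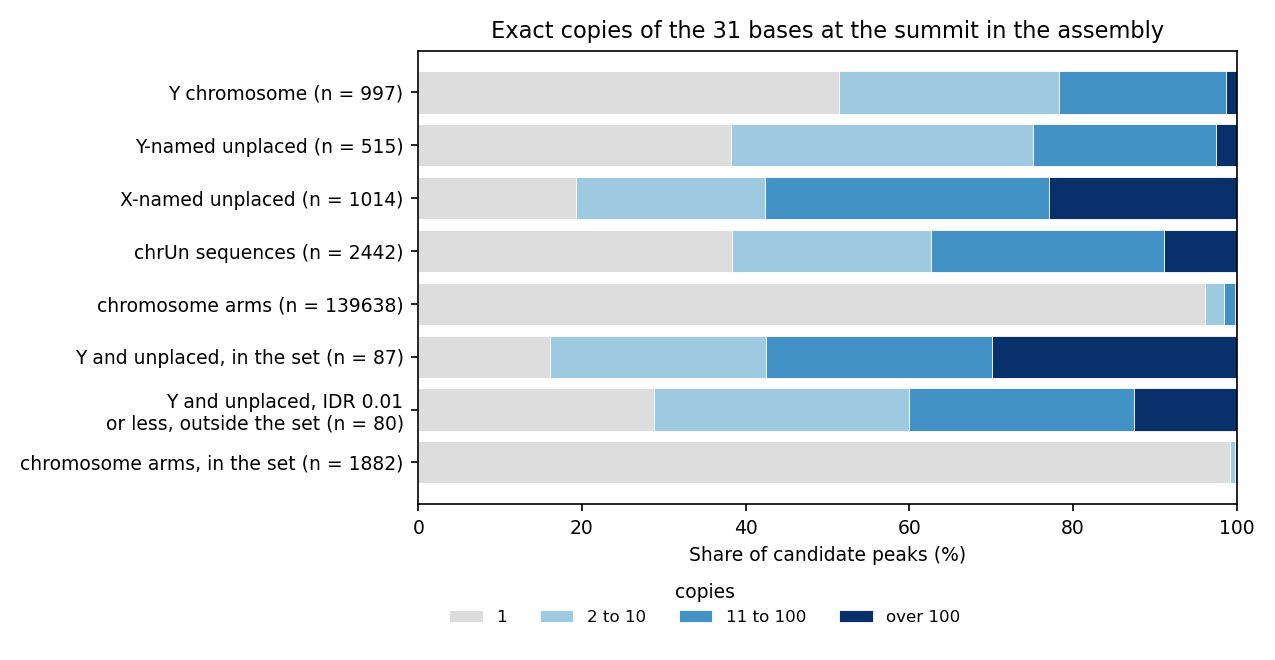
Share of candidates (horizontal, percent) by the number of exact copies of the 31 bases at their summit in the assembly, for each kind of sequence, for the arms, and for peaks in and outside the set. Single-copy summits are 99.2% of arm peaks in the set and 16.1% of Y and unplaced peaks in the set.

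Close copies elsewhere were common. Of the 87 peaks, 84 had a match of at least 90% identity over at least 80% of the peak on another sequence, and for 71 the best lay on another X-named scaffold. A match on a placed arm existed for 21, of which 19 lay on the X arm. The match on an arm overlapped a candidate in 9 and a peak of the set in none (0). Of all arm candidates 1.35% were in the set. Whether the matches on other unplaced scaffolds held peaks of the set was not counted. None of the 57 satellite peaks had such a match on an arm.

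On the Y and unplaced sequence base composition went with the type of repeat. Of the arm peaks in the set 98.8% matched no repeat. The windows were 67.3% A and T in the median both for the 87 peaks and for the 1882 arm peaks of the set, against 65.3% of all X-named candidates, 58.4% on the Y and 52.5% on the arms. The 80 candidates outside the set at an IDR of 0.01 or less had a median of 48.0%. Within satellite and within R1 the medians of the peaks in the set were not higher: satellite windows had a median of 69.3% in the set against 70.3% of all X-named satellite candidates, and R1 windows had 44.6% in both. The homeodomain core word TAATTA, searched on both strands (it is its own reverse complement and does not overlap GAGAG), occurred in 21 of the 87 windows (24.1%), in 14.3% of X-named candidates and in 4.80% of all windows of the list. Of those 21, 20 were satellite and 1 was precursor rRNA, and over all satellite candidates 177 of 633 windows held it (27.96%). Of the windows printed above, that of chrX_DS484633v1_random holds the word and the other 6 do not. The word GAGAG, bound by GAGA factor, occurred in 5.75% of the 87 and 12.4% of all windows. A match is a description of letters and not a binding site.

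Along the Y, the density of candidates was uneven and was lowest in the middle of the assembled sequence. In bins of 250 kb their number per kb without gaps ran from 0.0721 at chrY:2000001-2250000 to 0.778 at chrY:3500001-3667352, with 0.627 at chrY:500001-750000 and 0.579 in the first bin. Stellate family matches made 36 of the Y candidates and were grouped in 3 bins, 16 from chrY:750001-1000000, 13 in the next bin and 7 in chrY:2500001-2750000. Other transposons accounted for 54.9% of the Y candidates and 29.1% matched no repeat.

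Genes of the Y carried many candidates. None of these was in the set, where 1 of all 998 Y candidates was (0.100%). The annotation lists 152 genes on these sequences, of which 50 held a summit. Of the Y candidates, 444 (44.5%) lay in a gene, and 408 of them in the male fertility and other protein-coding genes of the Y list. The dynein heavy chain genes *kl-3*, *kl-5* and *kl-2*, which build sperm tails, had 99, 74 and 59 summits. *ORY*, *Ppr-Y*, *WDY*, *PRY* and *CCY* had 47, 44, 34, 33 and 9, *FDY*, *Pp1-Y2* and *ARY* had 4, 3 and 2, and *Pp1-Y1* had 0. Counts followed gene length only in part: *kl-3* spans 226785 bp at 0.436 summits per kb and *WDY* 214356 bp at 0.159. Over the whole Y, with gaps counted, there were 0.272 candidates per kb. The share of the Y that lies in genes was not computed. The strongest candidate in any of these genes, in *kl-5*, had a signal of 40.4.

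Few unplaced candidates lay in genes (44, or 1.11%). *klhl10*, a gene of the Kelch family annotated on chrUn_CP007081v1, had 23 summits with a median signal of 24.9 and a highest of 50.3. Of 19 rRNA genes, 8 held a summit, all on the ribosomal DNA scaffold and 13 candidates in all, of which 3 are counted below both in a precursor and in a gene within it. There were 7 in 28SrRNA-Psi:CR40596, 2 each in pre-rRNA:CR45845 and pre-rRNA:CR45846, and 1 each in 28SrRNA-Psi:CR45848, 28SrRNA:CR45837, 28SrRNA:CR45844, 2SrRNA:CR45840 and pre-rRNA:CR45847. Su(Ste):CR42426 had 4 summits, Su(Ste):CR42414 had 3, and Su(Ste):CR42415, Su(Ste):CR42417, Su(Ste):CR42419, CG41561 and the pseudogenes CR41423, CR45775 and CR46150 had 2 each. The pseudogenes CR41423 and CR46150 had the higher signals of these, with medians of 40.3 and 39.0. No peak of the set had its summit in an annotated gene on these sequences. Of all Y and unplaced candidates 9.8% did, and of the unplaced ones 1.11%.

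Transposons other than R1, telomeric elements and hoppel made up 2181 candidates, with 4 in the set (0.183%), against 1.36% of the whole list. All 4 were among the 95 such candidates on X-named scaffolds (4.21%). The families with the most were gypsy12 with 133, GATE with 130, Idefix with 93, G2 with 90 and Quasimodo with 80, all with 0 in the set. Few of their candidates were X-named: 1 of gypsy12, 1 of GATE, 0 of Idefix, 10 of G2 and 0 of Quasimodo. Family and kind of sequence cannot be told apart here. The medians of these families ran from 8.31 for Quasimodo to 14.0 for G2, all below the 19.2 of the whole list. The strongest gypsy12 copy reached 216.5. Overlapping rows were about as common as elsewhere: 22.3% of the Y and 25.01% of the unplaced candidates overlapped a stronger one, against 28.3% of the whole list, and merging overlaps left 3653 intervals of the 4972.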

How the data were processed

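Peak lists of 2 replicates were used, for each alone and for both together, on dm6 per the labels. Neither aligner nor peak caller is named in the labels or headers. The authors deposited for each peak a score, a signal value, a −log10 q (on the log10 scale, at times slightly below 0) and, in the ranked lists, a −log10 of the global IDR. The lists over both replicates are the authors' own pooling. In them 16 columns of single-replicate values that no label ties to a sample were not used.

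Computed here were counts, medians and Wilson 95% intervals of shares, with no test. Names of the lists were matched to the RefSeq copy of the assembly by a constant difference between accession numbers. For every sequence name in the lists the peaks lay within the matched length, and all 420 X-named and 147 Y-named sequences had such a title. Overlap was 1 bp or more. Peaks were compared by BLAST 2.17.0 (E value 1e-05 or less, best score) with a repeat library of 2 satellite units from the scaffold of the strongest X-named peak, 1 precursor rRNA, 48 Stellate family genes and 5734 annotated copies of 128 transposon families. A type needed a match over 50% of the peak. Copies of summits were counted on both strands, and genes by the summit in the gene body. The short tandem repeat type was added after the values of the candidates were seen. Functions were tested on simulated sequence. Python 3.11.15, numpy 2.4.6 and pandas 2.3.3 were used.

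The regions named are the Y peak of the set, the 10 strongest unplaced peaks of the set, the 10 sequences with the most candidates and the 10 with the most peaks of the set, the 5 strongest candidates outside it on the Y and on unplaced sequence, all members of the gene lists and 10 other genes with the most summits. Windows were printed from a strong peak of each kind that could be shown, which was not always the strongest. The HeT-A peak shown had a signal of 191.2, against a highest of 226.5, and matched HeT-A at 72.4% identity. The short tandem repeat shown had 111.9, against a highest of 150.8. Members and lists were chosen with earlier results of these data known. Alternatives were the other ranked list with the conservative set, each replicate alone, leaving out overlapping peaks or those with q above 0.05, both kinds of sequence together, an overlap of 50%, windows reaching 100 bp to each side, the fewest copies of 3 windows, gene overlap by the whole peak and, chosen after seeing the data, a repeat match over 80% of the peak.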

Additional observations from a re-analysis of the deposited data

How the results depend on the processing

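Depth is unknown, and without a control the signal cannot be set against a background. Of the settings tried for the main values, 21 left the value within its interval or spread and 22 moved it. The share in the set was 0.455% to 1.00% on the Y and 3.26% to 3.55% on unplaced sequence when either replicate was left out. It was 2.75% on unplaced sequence without overlapping peaks, 1.75% with both kinds together, and 100% (1 peak, Y) and 57.1% (70 peaks, unplaced) at q of 0.05 or less. The median signal was 11.3 (Y) and 16.2 (unplaced) without overlapping peaks. The share at an IDR of 0.05 or less was 1.14% to 1.5% (Y) and 7.98% to 8.96% (unplaced) with 1 replicate left out, and 7.32% (unplaced) without overlapping peaks. With an overlap of 50% a candidate of replicate 1 covered 17.7% (Y) and 40.5% (unplaced), and one of replicate 2 covered 36.0% and 49.1%. In windows reaching 100 bp to each side 1.58% of unplaced candidates had a tandem run, and by the fewest copies of 3 windows 24.6% (Y) and 40.6% (unplaced) were repeated. The cause of these shifts was not tested. With a match over 80% of the peak, 55 satellite and 15 R1 peaks of the set remained of that type, 12 had no match and 0 matched hoppel.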
